A study of Mus musculus with 8 samples.

Results

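The 4 wild-type pools of B-cell-biased lymphoid progenitors (BLPs) in this series were described on their own, as the baseline transcriptome of that population. They were chosen by genotype label alone: 4 of the 8 RNA-seq samples came from H2afy+/+ mice, and the 4 samples from H2afy-/- mice were not used. H2afy encodes macroH2A1, a histone H2A variant, and no other allele, treatment or strain is named in the labels of these pools. The mice were 5 to 12 weeks old. Each pool held RNA equivalent to 5000 to 15000 cells from 2 to 3 mice, so a pool is an average over animals and not 1 mouse. Bone marrow was enriched for c-Kit+ cells with CD117 beads and the BLPs were then sorted by flow cytometry; the labels do not describe the gates. Whether the pools shared mice is not stated, so the spread reported here is that between pools.

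B-cell-biased lymphoid progenitors are an early stage of lymphopoiesis in the bone marrow, downstream of the common lymphoid progenitor. FLT3 and the interleukin-7 receptor provide the growth signals of this stage. The transcription factors E2A (Tcf3), EBF1, FOXO1 and PAX5 act in succession to open the B-cell program: EBF1 drives genes of the pre-B receptor, and PAX5 later fixes B-cell identity. Terminal transferase and the RAG proteins act on immunoglobulin heavy-chain gene segments as they are joined.

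Counts per pool ranged from 22585151 to 26486642. Levels are given in CPM (counts relative to the library size, scaled with TMM factors that ranged from 0.898 to 1.105), and in RPKM (CPM per kilobase of merged exons) where genes are compared with each other. A gene was called expressed at 1 CPM or more in all 4 pools. By this rule 11211 of 37991 gene IDs were expressed, which is 29.5% of all IDs, and 10547 of the 22337 protein-coding IDs, which is 47.2%. That 47.2% is the background for every count of expressed list members below. A further 1991 IDs reached 1 CPM in some pools only, 13123 had counts but stayed under 1 CPM in every pool, and 11666 had no count. The median expressed gene was at 28.2 CPM and 7.43 RPKM, its highest pool was 1.497 times its lowest, and its CV between pools was 18.01%. Levels of 10 CPM or more in all pools were reached by 7561 genes, 100 CPM by 1778 and 1000 CPM by 56. No 2 pools were alike within counting noise, and Pearson's r between pools over the 11211 expressed genes, as a description across genes, ran from 0.936 (pools 2 and 4) to 0.975 (pools 3 and 4).

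The labelled cell type was compared with 5 markers of this stage, Flt3, Il7r, Ly6d, Ebf1 and Kit. All 5 were expressed in every pool, far above the median expressed gene. Flt3 (chromosome 5: 148142317 to 148212065, NCBIM37), the receptor for FLT3 ligand, was at 911, 1087, 1140 and 1071 CPM in pools 1 to 4 (1052.5 ± 98.5, SD, n = 4). Il7r (chromosome 15: 9435916 to 9459631), the interleukin-7 receptor alpha chain, was at 478, 478, 414 and 458 CPM (457 ± 30.2, SD, n = 4). Both receptors had narrow spreads, with a CV of 9.36% for Flt3 and 6.62% for Il7r. Ly6d (chromosome 15: 74592486 to 74593997), the surface protein that separates B-biased from all-lymphoid progenitors, was at 781, 646, 691 and 1057 CPM (794 ± 184, SD, n = 4) and was highest in pool 4. Per length Ly6d stood far above the rest of the set, at 1149 RPKM and rank 38 of the 11211 expressed genes, against 170 RPKM for Flt3 (rank 359) and 142 RPKM for Il7r (rank 451). Kit (chromosome 5: 75970941 to 76052747), the stem cell factor receptor on which the cells were enriched, was at 393, 312, 316 and 299 CPM (330 ± 42.4, SD, n = 4). Ebf1 (chromosome 11: 44430819 to 44821593), the factor that starts the B program, was at 521, 679, 318 and 272 CPM (448 ± 189, SD, n = 4). It was the least even of the 5: its value in pool 2 was 2.49 times that in pool 4, and pools 1 and 2 were both above pools 3 and 4.

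Other surface genes of early progenitors were also present in every pool. Cd93, a surface marker of early B-lineage cells, was at 593, 547, 409 and 601 CPM. Cd27, a receptor of the TNF family, was at 202, 254, 283 and 288 CPM, and Cd34 was at 363, 235, 409 and 373 CPM, with pool 2 lowest. Ly6a, which encodes Sca-1, was at 107, 73.8, 168 and 162 CPM. These 4 genes lay within a factor of 2.28 between the highest and lowest pool.

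**Figure D1:**
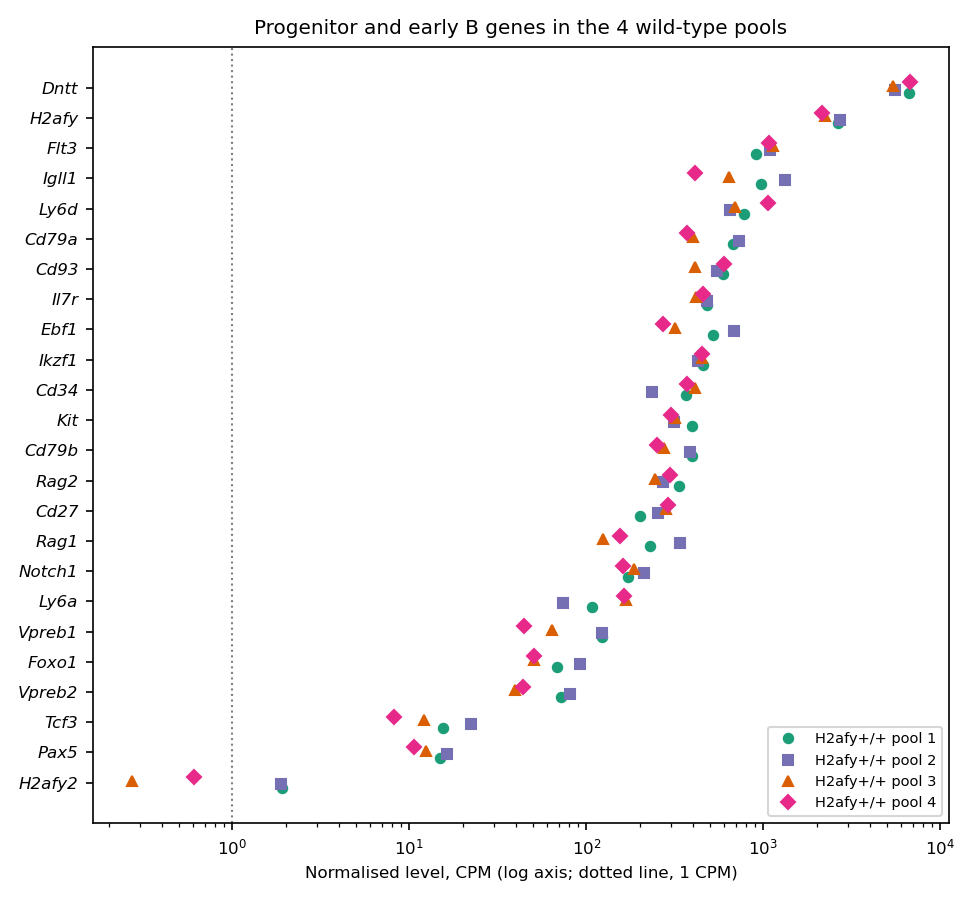
CPM on a log axis of 24 progenitor and early B genes, 1 symbol per pool, ordered by mean; the dotted line is 1 CPM. Dntt is highest at 5405 to 6743 CPM, Il7r and Ikzf1 show nearly coincident points, and Ebf1, Rag1, Igll1 and Vpreb1 are spread, with pools 1 and 2 to the right of pools 3 and 4.

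Terminal transferase had the highest mean level of the lymphoid gene lists over the 4 pools. Dntt, the polymerase that adds untemplated bases at V(D)J joins, was at 6654, 5519, 5405 and 6743 CPM, which is 2857 ± 337 RPKM (SD, n = 4) and rank 10 of the expressed genes. It was even, with the highest pool 1.25 times the lowest; in pool 3 the joining-chain gene Igj, described below with the plasma cell list, was at 9317 CPM. The recombinase genes were lower and differed in spread. Rag1 was at 229, 340, 125 and 155 CPM, with a ratio of 2.73 between pools 2 and 3, while Rag2 was at 334, 272, 245 and 297 CPM, with a ratio of 1.36. Per length the mean was 32.1 RPKM for Rag1 and 83.8 RPKM for Rag2. Of 13 genes for recombination and end joining all 13 were expressed, with a median of 54.9 CPM. Xrcc6 (Ku70) reached 184 RPKM, and the ligase gene Lig4 was lowest of the list at 3.03 RPKM.

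Genes of the pre-B receptor and its signalling were all expressed, 17 of 17, with a median of 167 CPM. Igll1 (lambda5, the surrogate light chain) was at 975, 1330, 640 and 412 CPM. Vpreb1, its partner, was at 122, 122, 63.8 and 44.6 CPM, and Vpreb3 at 298, 308, 157 and 123 CPM. In each of these genes both pools 1 and 2 were above both pools 3 and 4. The same order held for Cd79a (Ig-alpha), at 672, 725, 403 and 370 CPM, and for Cd79b (Ig-beta), at 397, 385, 275 and 251 CPM. Vpreb1 and Vpreb2 are similar in sequence, so their counts may not be fully separate. The list as a whole moved less: its mean log2 CPM was 7.12, 7.32, 6.87 and 6.83. Of its 17 members 10 were highest in pool 2, against 32.2% of all expressed genes, and 8 differed by 2-fold or more between pools, against 19.3% of all expressed genes. Btk, at 338, 277, 286 and 310 CPM, was not among these 8, and Fcrla stood in the reverse order, at 7.96, 5.73, 33.7 and 34.9 CPM.

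Transcription factors of the B lineage were all expressed, 23 of 23, over a wide range of levels. Ikzf1 (Ikaros) was one of the most even, at 453, 429, 449 and 451 CPM (CV 2.51%). Per length the highest were Ets1 at 84.2 RPKM, Myb at 76.9 RPKM and Ikzf1 at 75.3 RPKM. Foxo1 was at 68.6, 92.6, 50.5 and 50.6 CPM. Several classical regulators were low in count. Pax5 was at 14.8, 16.2, 12.4 and 10.6 CPM (3.95 RPKM, rank 7419), Tcf3 at 15.4, 22.2, 12.1 and 8.21 CPM (3.59 RPKM, rank 7664), and Spi1, listed under its older symbol Sfpi1, at 4.49, 3.69, 4.20 and 5.28 CPM (1.64 RPKM). These transcripts are rich in G+C: merged-exon G+C was 57.7% for Pax5, 60.8% for Tcf3 and 56.0% for Sfpi1, against a median of 49.4% for expressed protein-coding genes. Over the whole table the share of genes expressed differed between ranges of exon G+C. Among protein-coding genes with exons over 60% G+C, 221 of 956 were expressed (23.1%), with a median of 6.18 CPM. At 55 to 60% G+C, the range that holds Pax5 and Sfpi1, 1795 of 3714 were expressed (48.3%), with a median of 16.3 CPM, and among those at 45 to 50% G+C, 2879 of 5738 were expressed (50.2%), with a median of 38.1 CPM. At 40% G+C or less the share expressed was 33.5% of 1676 genes, and their median was 37.7 CPM. Junb and Jund, at 62.6% and 62.7% G+C, were at 3.35 and 3.15 CPM on average. The part of G+C in these levels was not tested.

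The promoters of the abundant lymphoid genes differed in CG dinucleotides, which are dense in the CpG islands of widely used genes. RefSeq windows (GRCm38.p6) were matched by symbol for 7644 of the 10547 expressed protein-coding genes (72.5%), using the first window listed for a gene and its 250 bases before the start. Counting the letters CG, a CpG observed-to-expected ratio of 0.6 or more was found in 70.4% of expressed genes and in 20.3% of the 6380 matched genes under 1 CPM in all pools, with 47.2% over all 14950 matched protein-coding genes. Below are 4 of these windows. They are shown because they set CG-poor promoters of abundant lymphoid transcripts beside windows with more CG, of a receptor and of the scarce Pax5. All are written 5′ to 3′ on the gene's strand, with each CG in capitals.
Dntt (chr19:41029025-41029274, plus strand, 2 CG): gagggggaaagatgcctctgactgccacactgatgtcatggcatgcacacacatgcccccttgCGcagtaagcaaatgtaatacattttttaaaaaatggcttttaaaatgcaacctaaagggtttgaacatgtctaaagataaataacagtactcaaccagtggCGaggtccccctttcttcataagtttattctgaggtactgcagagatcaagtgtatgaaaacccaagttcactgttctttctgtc
Igll1 (chr16:16863986-16864235, minus strand, 1 CG): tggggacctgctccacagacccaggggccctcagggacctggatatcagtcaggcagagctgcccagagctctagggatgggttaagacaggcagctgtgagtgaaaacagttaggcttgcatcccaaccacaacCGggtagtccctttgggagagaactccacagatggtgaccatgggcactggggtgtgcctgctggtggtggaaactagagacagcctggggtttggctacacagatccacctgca
Kit (chr5:75574737-75574986, plus strand, 17 CG): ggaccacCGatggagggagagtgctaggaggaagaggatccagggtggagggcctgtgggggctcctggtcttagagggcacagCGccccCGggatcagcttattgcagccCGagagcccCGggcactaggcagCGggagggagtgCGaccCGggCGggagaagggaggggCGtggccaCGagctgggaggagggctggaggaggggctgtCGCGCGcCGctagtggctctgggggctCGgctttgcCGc
Pax5 (chr4:44710695-44710944, minus strand, 19 CG): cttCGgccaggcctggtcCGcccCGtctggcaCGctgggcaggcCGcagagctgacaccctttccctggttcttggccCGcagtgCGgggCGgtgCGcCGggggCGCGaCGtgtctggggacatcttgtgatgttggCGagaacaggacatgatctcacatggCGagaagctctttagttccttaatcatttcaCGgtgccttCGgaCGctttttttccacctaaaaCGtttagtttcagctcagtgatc

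Read with the levels above, the window of Dntt, the most abundant of these genes, held 2 CG and that of Pax5, the least abundant, held 19. Il7r with 1 CG, Rag1 with 3 and Rag2 with 3 were also poor in CG, and Foxo1 held 20. Other abundant lymphoid genes had many CG: Ikzf1, at 445 CPM on average, held 44 and Myb, at 291 CPM, held 40. Ebf1, at 448 CPM, held 9, with an observed-to-expected ratio of 0.989. Flt3 held 13 CG against a median of 16 for matched expressed genes, whose quartiles were 10 and 23. Kit, Pax5 and Foxo1 lay within these quartiles too. The observed-to-expected ratio was 0.597 for Flt3, just under 0.6. It was 0.601 for Kit, just over 0.6, and 0.88 for Pax5. Over the pre-B receptor list 3 in 13 matched promoters were CpG-rich (23.1%), over the granulocyte and monocyte list 5.26%, and over the G2 and M phase list 90.9%. Over the list of B-lineage transcription factors the share was 61.1% of 18 matched promoters. The word TATAA, searched on the gene's strand only from 40 to 21 bases before the start, was found in 1.53% of expressed genes, in 4.24% of all matched genes and in 21.1% of the granulocyte and monocyte list, among them Elane and S100a8.

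**Figure D2:**
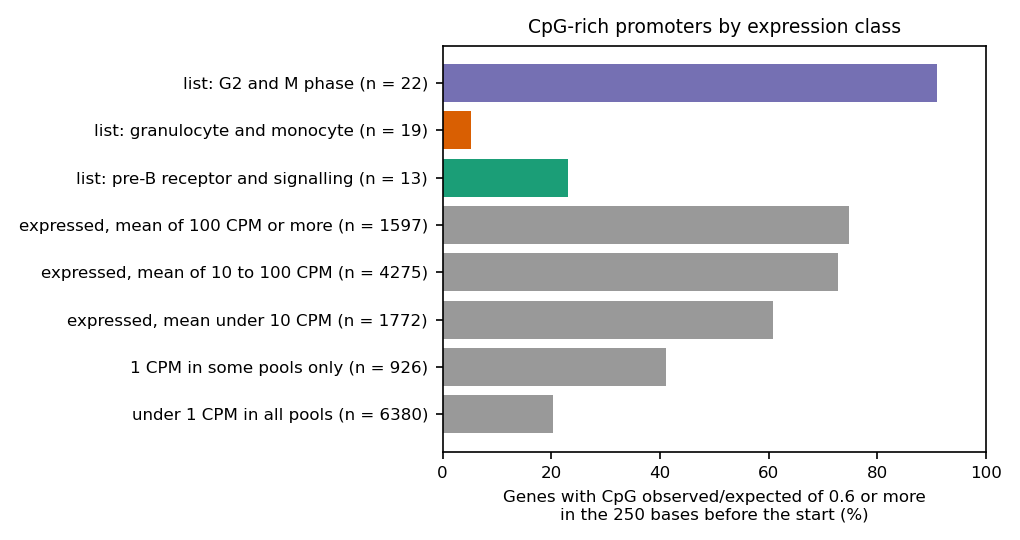
Percent of matched protein-coding genes whose 250 bases before the start have a CpG observed-to-expected ratio of 0.6 or more, for 5 expression classes (grey) and 3 gene lists (coloured); n is the number of genes with a window. The share is 20.3% for genes under 1 CPM in all pools and 74.8% for genes at a mean of 100 CPM or more, with the pre-B receptor and granulocyte lists at 23.1% and 5.26%.

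Proliferation genes were expressed in every pool. All 25 S phase genes and all 25 G2 and M phase genes were expressed. Their medians were 250 and 162 CPM, against 28.2 CPM for the median expressed gene. Some mitotic genes were lower, such as Cdc20 and Plk1 at means of 23.5 and 49.2 CPM. Rrm2, a subunit of ribonucleotide reductase, was at 1286, 1448, 1199 and 940 CPM. Top2a, the mitotic topoisomerase, was at 2081, 1771, 1668 and 1577 CPM, and Mki67, the proliferation marker Ki-67, was at 371, 510, 298 and 268 CPM. Their median CVs between pools were 11.6% and 12.4%, near the 12.9% of all genes at a mean of 100 CPM or more, and no member differed 4-fold. Of the 25 G2 and M phase genes 17 were lowest in pool 4, against 24.5% of expressed genes. Among regulators of the cycle Cdk6 stood highest, at 2092, 4335, 3314 and 1706 CPM (766 RPKM), above Cdk4 at 167 RPKM. The D-type cyclin Ccnd2 was at 497, 667, 651 and 511 CPM, Ccnd3 at 105, 110, 57.5 and 48.6 CPM, and Ccnd1 at 3.53 to 5.97 CPM. The inhibitor genes Cdkn2a and Cdkn1c stayed under 1 CPM in all pools.

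With immunoglobulin and mitochondrial genes set apart as classes, genes of general function made up most of the 10 highest by mean CPM. Actb was highest, at 16215, 20880, 17395 and 13963 CPM. The beta-tubulin gene Tubb5 was at 6360, 12862, 7695 and 4423 CPM and was less even, with a ratio of 2.91. Among the rest of these 10 were the nuclear RNA Malat1 (5820 CPM on average), the chaperone Hsp90ab1 (4250), Rpl4 (3712), Eef1a1 (3461) and B2m (3142). The most even genes at 100 CPM or more included Mki67ip, at 148 to 152 CPM, and Arpp21, at 344 to 351 CPM. Gapdh had only 128, 72.4, 75.7 and 115 CPM; it has many near-identical pseudogene copies, so its count is uncertain.

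Among chromatin genes, H2afy itself was abundant. It was at 2631, 2726, 2226 and 2142 CPM (2431 ± 290, SD, n = 4), 357 RPKM and rank 137, so the gene deleted in the other genotype of the series was within the top 1.22% of expressed genes per length. Its paralog H2afy2, which encodes macroH2A2, was at 1.92, 1.88, 0.271 and 0.610 CPM and did not pass the expression rule. In a list of 16 histone variant genes and chaperones 15 were expressed, and per length H2afz (411 RPKM) and H3f3b (365 RPKM) stood beside H2afy. Of 20 Polycomb and DNA methylation genes 19 were expressed. Dnmt1, the maintenance methyltransferase, led them at 574, 450, 424 and 434 CPM, and Ezh2, the Polycomb methyltransferase, was at 197, 293, 183 and 157 CPM.

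Of 32 gene lists 26 were called present (50% or more of the members at 1 CPM or more in all pools), 5 partly present and 1 absent. Since 47.2% of all protein-coding IDs passed the same rule, a list just over that share is near the background, and the call alone says little about it. The absent list held 16 markers of liver, muscle, neurons and other unrelated tissues, and their summed level was 0.321 to 1.02 CPM. All 16, each protein-coding, were under 1 CPM in every pool. So were 10365 of the 22337 protein-coding IDs, and 65.2% of all gene IDs. The T-lineage list was not far above that background, with 12 of 21 members expressed (57.1%). Its highest member per length was the kinase gene Lck, at 393, 370, 389 and 381 CPM. Notch1, the receptor that directs T-cell fate, was at 173, 213, 186 and 161 CPM. The genes of the T-cell receptor complex were near the floor: Cd3e was at 0 to 0.406 CPM, Cd3d at 0.181 to 0.579 CPM, and Ptcra had a count in pool 2 alone, at 0.240 CPM. The natural killer list had 13 of 21 members expressed (61.9%), also not far above the 47.2%: Nkg7 was at 299 to 372 CPM, while Eomes, Tbx21 and Gzmb were under 1 CPM in all pools.

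Of 20 dendritic-cell genes 16 were expressed (80%, beside 47.2% of protein-coding IDs). Siglech, a surface receptor of plasmacytoid dendritic cells, was at 58.2, 72.5, 114 and 209 CPM, and Ccr9 at 93.4, 78.3, 87.1 and 159 CPM, both highest in pool 4. The classical dendritic-cell genes Batf3 and Zbtb46 were low, at 0 to 0.398 CPM and 1.87 to 2.28 CPM. Class II genes were all expressed, 10 of 10, with Cd74, the invariant chain, at 859, 1094, 3372 and 1904 CPM. Cd74 was highest in pool 3, whereas H2-Ob, at 452, 593, 386 and 522 CPM, was lowest there. Genes of mature B cells were mostly low: 11 of 15 were expressed (73.3%, beside 47.2% of protein-coding IDs). The median over the list was 6.07 CPM. A mean of 10 CPM or more was reached by 6 of the 15, and the list summed to 810, 1013, 843 and 956 CPM. Ms4a1 (CD20) was at 6.37, 2.12, 14.2 and 18.3 CPM.

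**Figure D3:**
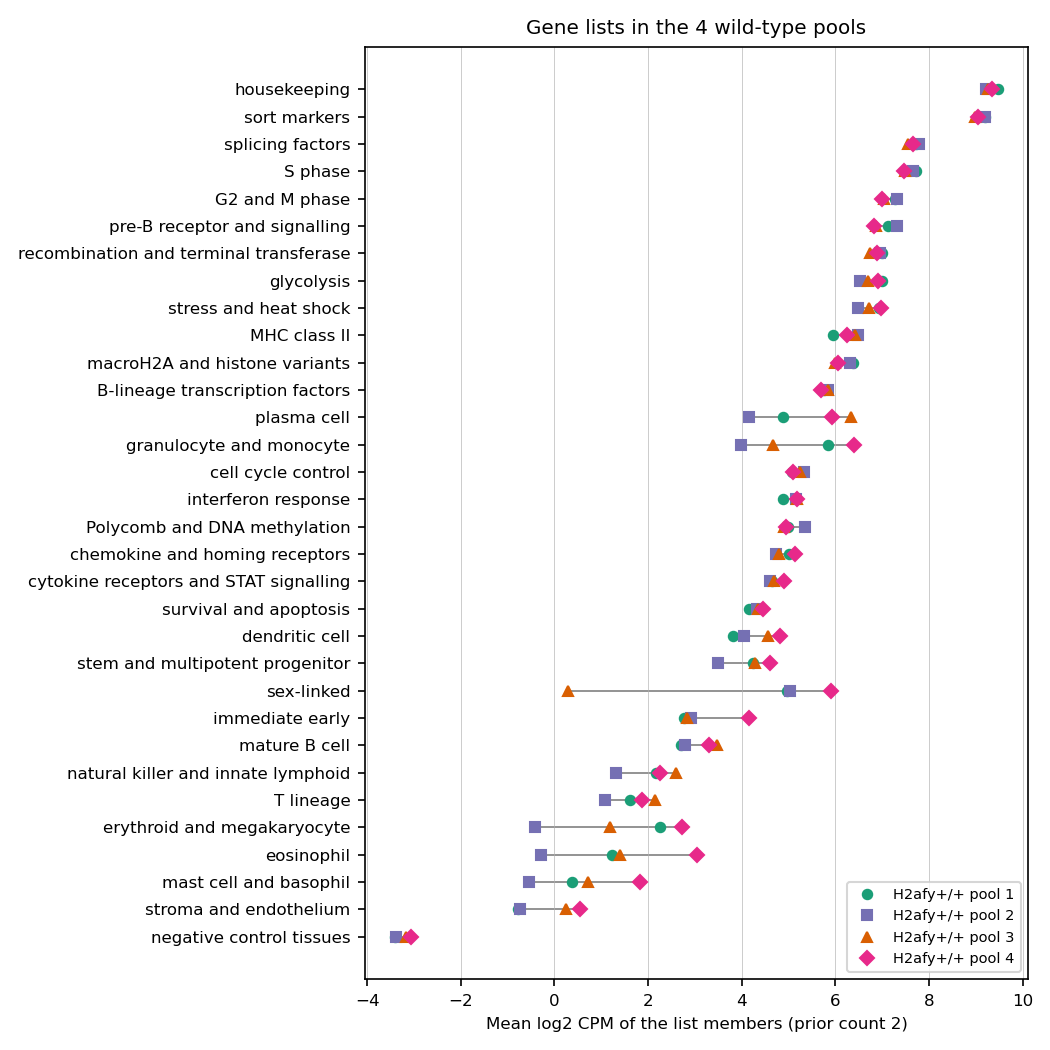
Mean log2 CPM of the members of each of the 32 gene lists, 1 symbol per pool, with a grey line from the lowest to the highest pool. Most lists cover less than 0.6 on this scale, and the sex-linked, eosinophil, erythroid, granulocyte, mast cell and plasma cell lists cover 2.18 to 5.62; pool 2 is lowest in the latter 5.

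Between the pools 233 of 8298 genes at a mean of 10 CPM or more (2.81%) had a highest pool at least 4 times the lowest. Fewer pools tend to lower this count by the rule itself. Leaving out 1 pool at a time gave 155 to 224, the lowest without pool 2. Immunoglobulin genes made up 116 of the 233, out of 122 such genes at that level. Outside them the count was 117 of 8176 (1.43%). The class was set by gene type and symbol. It left Gm7112 and Gm15449 among the 117, although both lie on chromosome 12 between the immunoglobulin V genes Gm16610 and Gm16930. Of these 117 genes 97 were lowest in pool 2, against 30.8% of expressed genes, and 70 were highest in pool 4, against 22.3%. The common biological coefficient of variation was 0.300. In a bulk pool a larger share of cells of a type and more RNA per cell of that type cannot be told apart, and this holds for every group described next.

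Immunoglobulin transcripts varied widely. They took 3.52%, 1.01%, 19.7% and 13.0% of the counts in pools 1 to 4 (9.30 ± 8.63%, SD, n = 4). Ighm, the mu constant region, was at 16954, 5452, 98212 and 70553 CPM, and Igkc, the kappa constant region, at 7864, 1448, 59640 and 28961 CPM. The kappa values span a factor of 41.2 between pools 3 and 2. Igkv14-130, the highest V gene by mean, was at 16.8, 17.4, 20198 and 4022 CPM, so it was abundant in 2 pools only. The next, Igkv14-126, was at 1215, 58.5, 10977 and 8034 CPM, and the highest heavy-chain V gene, Ighv11-2, at 550, 31.0, 6897 and 3799 CPM. These last 2 V genes are known as a pair in the B-1 cell receptor for phosphatidylcholine; all 5 immunoglobulin genes in this paragraph were picked after their values were seen. The share of counts in the 50 highest genes was 15.9%, 14.3%, 29.0% and 23.7%, and without the immunoglobulin genes it was 14.4%, 14.4%, 15.0% and 15.1%.

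Genes of antibody-secreting cells had the same order of pools. All 14 members of the plasma cell list were expressed, 12 of them highest in pool 3 (20.5% of expressed genes) and 12 lowest in pool 2 (30.8%). Igj, the joining chain of secreted IgM, was at 2031, 299, 9317 and 6398 CPM. Txndc5, an oxidoreductase of the endoplasmic reticulum, was at 51.6, 51.4, 246 and 136 CPM, and Tnfrsf17 (BCMA) at 4.13, 1.72, 24.4 and 17.8 CPM. The factor genes Prdm1, which encodes BLIMP1, and Xbp1 were at 5.65, 5.37, 18.5 and 13.3 CPM and at 48.5, 49.2, 111 and 84.6 CPM. Sdc1 (CD138) did not follow, at 39.5, 40.3, 43.5 and 39.7 CPM. In all, 30 of the 117 genes had both pools 3 and 4 at least 2 times both pools 1 and 2. This pattern was chosen after the values were seen and was counted only among the 117 genes. The 30 included Il5ra, at 2.68, 1.76, 22.8 and 13.2 CPM, and Bhlhe41, at 17.6, 5.81, 90.7 and 37.9 CPM. They also included Xist and Gm10800, so the count is not one of antibody-secreting cell genes alone. The pre-B receptor genes described above stood in the other order, lower in pools 3 and 4. The part of antibody-secreting cells in these levels was not tested.

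Granule and myeloid genes followed a different order, with pools 1 and 4 high. Of 23 granulocyte and monocyte genes 19 were expressed (82.6%, beside 47.2% of protein-coding IDs). Of these 19, 16 were highest in pool 4 (22.3% of expressed genes) and 18 lowest in pool 2 (30.8% of expressed genes). The list summed to 7760, 1756, 2547 and 11968 CPM. Ngp, a granule protein of neutrophil precursors, was at 2099, 255, 489 and 3132 CPM, S100a8 at 903, 84.5, 182 and 923 CPM, and Ltf (lactoferrin) at 1018, 57.4, 151 and 1365 CPM. The primary granule genes spread less than these: Mpo (myeloperoxidase) was at 1556, 773, 883 and 3090 CPM, and Elane (neutrophil elastase) at 378, 171, 207 and 764 CPM. The defining neutrophil surface gene Ly6g had no count in pools 2 and 3 and was at 1.05 and 1.67 CPM in pools 1 and 4, and the factor genes Cebpa and Cebpe were at 0.922 to 1.53 and 0.281 to 2.60 CPM. Cebpa has exons of 62.6% G+C. Among the 117 genes 34 had pools 1 and 4 at least 2 times pools 2 and 3, again a pattern chosen after the values were seen. That pattern was counted only among these 117 genes. The 34 also held Max, Prpf19 and Rhag, which are not on the granulocyte and monocyte list. Their number is therefore not one of myeloid genes alone. The part of myeloid cells in these levels was not tested.

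The erythroid, eosinophil and mast cell lists were called partly present, and their mean levels were also lowest in pool 2. Of their members 27.8%, 37.5% and 36.4% were expressed, under the 47.2% of protein-coding IDs that passed the same rule. Of the few expressed members 4 of 5, 2 of 3 and 3 of 4 were lowest in pool 2, against 30.8% of expressed genes. Car2, a carbonic anhydrase, was at 537, 207, 386 and 766 CPM, and Car1 at 124, 25.9, 65.1 and 256 CPM. Globin was scarce: Hbb-b1 was at 11.3, 0.1202, 0.677 and 8.66 CPM. Summed over 18 measured members the erythroid and megakaryocyte list was at 944, 493, 712 and 1377 CPM, with Gp1bb listed at 0. The eosinophil gene Prg2 (major basic protein) was at 58.5, 5.05, 70.5 and 173 CPM, and its list of 8 summed to 76.1, 12.1, 101 and 227 CPM. Of 11 mast cell and basophil genes 4 were expressed, the highest after Kit being Cpa3, at 21.6, 6.77, 46.3 and 17.5 CPM; Tpsb2 had no count in any pool. Of 15 stromal and endothelial genes 3 were expressed (20%, beside 47.2% of protein-coding IDs). Among them Pecam1, at 229 to 308 CPM, is also made by blood progenitors.

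**Figure D4:**
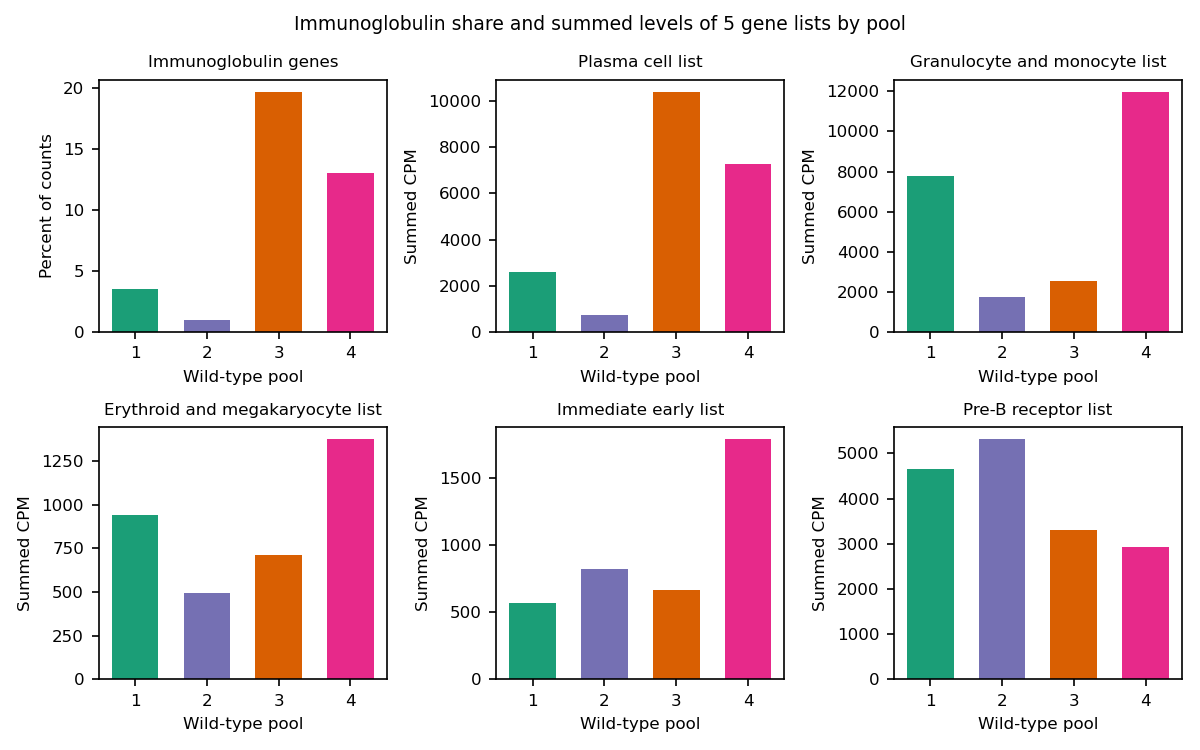
Immunoglobulin percent of counts and the summed CPM of 5 gene lists, 1 bar per pool from 0. Immunoglobulin and plasma cell bars are highest in pool 3, granulocyte, erythroid and immediate early bars in pool 4, and the pre-B receptor bar in pool 2 at 5314 CPM against 2934 CPM in pool 4.

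Of 24 genes of multipotent progenitors 18 were expressed (75%, beside 47.2% of protein-coding IDs), and 10 of these 18 were lowest in pool 2 (30.8% of expressed genes). Meis1, a homeobox factor of stem cells, was at 125, 116, 134 and 170 CPM, and Hoxa9 at 25.4, 32.2, 33.1 and 31.2 CPM. Some genes of primitive cells reached 1 CPM in some pools only. Procr was at 0.681 to 1.54 CPM, Mecom at 0.842 to 4.47 CPM and Slamf1 at 0 to 1.097 CPM. Hlf was higher, at a mean of 6.74 CPM. Cytokine receptor and STAT genes were present in 23 of 24 cases, and Epor was the exception, with no count in pool 2.

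Signalling genes that respond within minutes stood out in pool 4. Of 18 immediate early genes 15 were expressed, and 13 of these were highest in pool 4, against 22.3% of expressed genes. Fos was at 189, 350, 300 and 809 CPM, Zfp36, an RNA-binding regulator of cytokine messages, at 188, 174, 173 and 547 CPM, and Egr1 at 17.7, 8.82, 13.2 and 70.6 CPM. Of the heat-shock and stress list 4 of 10 expressed members were highest in pool 4 and 4 in pool 1. Hspa8, highest in pool 4, was at 1759, 1519, 1817 and 1900 CPM, and Hspa1a, which did not pass the expression rule, was at 0.521 to 2.24 CPM. Interferon-response genes were expressed in 25 of 25 cases at a median of 42.2 CPM; Irf9, a factor of the interferon response, was at 158, 186, 185 and 186 CPM, and 16 of the 25 were lowest in pool 1, against 22.5% of expressed genes.

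Sex-linked transcripts differed between the pools; the labels give no sex. Xist, which coats the inactive X chromosome in females, was at 1.09, 1.24, 455 and 382 CPM. The Y-linked helicase gene Ddx3y was at 194, 175, 0.632 and 79.3 CPM and Uty at 53.4, 49.3, 0 and 24.3 CPM; the absence of a Uty count in pool 3 allows up to 0.135 CPM (3 counts), for counting error only. Pools 1 and 2 thus carried Y-linked RNA with almost no Xist, pool 3 the reverse, and pool 4 both. Pools 3 and 4 were also the pools of high immunoglobulin and lower pre-B receptor levels, so these differences and the sex-linked ones cannot be told apart with these 4 pools.

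**Figure D5:**
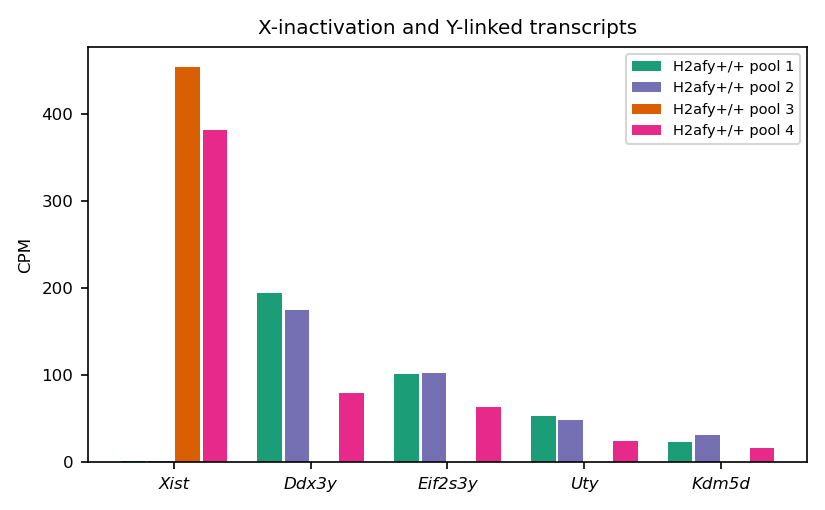
CPM of Xist and 4 Y-linked genes, 1 bar per pool from 0. Xist is high in pools 3 and 4, at 455 and 382 CPM, and the Y-linked genes are high in pools 1 and 2, lower in pool 4 and at 0 to 0.632 CPM in pool 3.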

How the data were processed

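Per the labels' protocols, cDNA was made with the SMARTer Ultra Low kit, which does not mark strand, sequenced as single reads of 50 bases, and aligned to mm9 with HISAT2 2.0.6; the counter with its strand option and gene models is not given in the sources at hand. The deposited values are raw counts per Ensembl gene ID, not normalized by the authors. Only the 4 H2afy+/+ columns were used. Gene names, positions and exon lengths came from GENCODE M1 (NCBIM37), which holds 37205 of the 37991 IDs.

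From the counts, edgeR 4.0.16 (R 4.3.3, limma 3.58.1) gave TMM factors within the 4 pools on the 12346 genes kept by filterByExpr, CPM, log2 CPM with a prior count of 2, RPKM, and the dispersion of an intercept-only model. Exons that overlap another gene may lose or gain counts: the shared part is 84.2% for Fen1, 67.3% for Gins2, 54.6% for Sox4, 41.6% for Cd72 and 30.5% for Il2rg. With 1 group there is no group test and no p-value; the spread between pools is the error, and 4 pools limit its precision. The scripts were tested on simulated data. Python 3.11.15 with pandas 2.3.3 and matplotlib 3.10.9 was used for promoters and figures.

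The members and gene lists were chosen with earlier results of these data known. Of 537 symbols 534 were matched, 8 through a synonym. Genes named in the text are 26 core genes, the 10 highest by CPM and by RPKM, the 3 highest of each list (for lists not present also members at 10 CPM in all pools, up to 5), the 10 largest ratios between pools at a mean of 10 CPM or more outside immunoglobulin genes and the 10 smallest CVs at 100 CPM or more; other list members named were chosen for their known function after their values were seen. Some members are not reported here. Alternatives were other size factors, other expression thresholds, no filter, immunoglobulin or mitochondrial genes left out, and each pool left out in turn.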

Additional observations from a re-analysis of the deposited data

Results flagged for a closer look

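In each result named here 1 of the 4 pools lay far from the other 3, with a gap that was more of the range than Dixon's critical value for 4 values allows; 12 of 166 values tested did so, and chance gives about 1 in 20. Outside the sex-linked genes and their list it was 7 of 160 (4.38%), no more than that rate. Values are log2 CPM. Pool 3 was low in the Y-linked genes Ddx3y (-0.49 against 6.31 to 7.60), Eif2s3y (-1.33 against at most 6.68), Kdm5d (-1.94 against 4.03 to 4.98) and Uty (-3.63 against 4.61 to 5.74), and so in the mean of the sex-linked list (0.29 against 4.96 to 5.91). Pool 3 was also low in Gtf3c2, a subunit of transcription factor IIIC, by a small step (7.54 against 7.59).

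Pool 4 was high in the mean of the immediate early list (4.16 against 2.77 to 2.92) and in its member Zfp36 (9.10 against 7.44 to 7.56), and low in H3f3b, a histone H3.3 gene (9.85 against 10.1 to 10.2). Pool 1 was low in the mean of the interferon response list (4.87 against 5.15 to 5.19) and high in Rrm1, a subunit of ribonucleotide reductase (9.98 against 9.57 to 9.59). Pool 2 was low in Ikzf1 (8.74 against 8.81 to 8.82), a step far smaller than those of the Y-linked genes. No cause of these values was tested.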

How the results depend on the processing

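No paired analysis was possible because only 1 group was described. The number of genes that varied 4-fold between pools was 233, of which 117 lay outside the immunoglobulin class. It came to 133 where immunoglobulin genes were left out before library sizes and size factors were computed, which changes every CPM. Leaving out 1 pool at a time gave 155 to 224, the lowest without pool 2, and fewer pools tend to lower this count by the rule itself. The biological coefficient of variation was 0.300 and came to 0.429 with no filter on low counts, and to 0.257 to 0.319 with 1 pool left out. Without 1 pool the number of expressed genes was 11303 to 11484, and lists present were 26 to 28. The rule asks for 1 CPM in every pool used, so fewer pools tend to raise both numbers. With 1 pool left out the share of the 50 highest genes was 17.99 to 22.9% and the immunoglobulin share 5.84 to 12.1%. At 5 CPM in all pools 8866 genes were expressed and 23 lists present, with the T-lineage list then absent, and at 1 CPM in at least 2 pools 12451 genes and 30 lists. Other size factors kept 11211 to 11219 expressed genes and 26 lists. With immunoglobulin genes left out their share has no value, and each CPM is relative to a smaller total. The mean levels of 27 of 128 named genes and 9 of 32 lists then moved by at least their SD between pools. Leaving out 1 pool at a time, 35 such gene levels moved and 477 did not. The counting step, the sex of the mice and the number of cells of each type set limits that 4 pools cannot resolve.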
